A study of Strongylocentrotus droebachiensis with 6 samples.

Results

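MMP14 and MMP16 are membrane-type matrix metalloprotease genes, and they were followed here in the green sea urchin Strongylocentrotus droebachiensis, in embryos that developed at full or at reduced size. Both were taken by name from the deposited expression table, where they made up 2 of 31261 rows. No value was used to choose them by the rule, although earlier results of these data were known. Polyadenylated RNA was sequenced from 6 samples of wild-type mesenchyme blastulae, 3 per group: intact embryos as controls, and half-size embryos. The half-size embryos were siblings of the controls, each grown from 1 blastomere after the embryo was split at the 2-cell stage. Fertilised eggs had been kept in aminotriazole (ATA, 1 mM), an agent that keeps the fertilisation envelope soft. At 3.5 hours the embryos were washed for 15 min in seawater lacking calcium and magnesium and sheared through a needle. Both groups were then cultured at 8 °C and collected at 46 hours after fertilisation. The same protocol text is given for both groups, and it does not state separately whether the control embryos also went through ATA and the wash, how many embryos a sample pooled, or whether the 3 samples of a group came from different parents. The p-values therefore measure the spread between these samples, which may be partly technical.

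Matrix metalloproteases are zinc-dependent enzymes that cut proteins of the extracellular matrix. The membrane-type members stay anchored in the plasma membrane, so they act at the surface of the cell that makes them. In vertebrates they are made as inactive precursors, are switched on when furin-like convertases remove the prodomain, and are blocked by tissue inhibitors of metalloproteases. MMP14 (MT1-MMP) of mammals cleaves fibrillar collagen and activates other secreted proteases of the family, and MMP16 (MT3-MMP) is a close relative. At the sea urchin mesenchyme blastula stage, skeletogenic mesenchyme cells leave the vegetal epithelium, cross the basal lamina and enter the blastocoel. The study asked which genes change their level with embryo size. A secreted relative, Mmp3, has been described in the frog Xenopus as a gene whose level follows embryo size.

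The libraries held 1804336 to 2294541 recovered reads each. The 6 columns carry a group name and no replicate number. Half-size and control libraries fell into 3 pairs, A, B and C, whose deviations from their group means correlated at 0.76, 0.63 and 0.52 over 11129 rows. Every other half-size to control correlation was at most 0.00932. This pairing was read from the values and is not stated in the labels, and tests that use it take no account of that choice. Markers of 5 embryonic territories were all detected, with 0 of 23 markers at 0 in every library, and they included 6 skeletogenic genes.

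MMP14 had higher values in half-size embryos in all 3 pairs. Its normalised read counts in half-size libraries were 1057 in pair A, 2943 in pair B and 2192 in pair C. In control libraries they were 891 in pair A, 1527 in pair B and 594 in pair C. The groups overlapped, because the half-size library of pair A lay below the control library of pair B. Higher half-size values without overlap were found in 2.51% of all rows tested. The half-size mean was 2064 ± 950 and the control mean 1004 ± 477 (SD, n = 3 each). The log2 difference on log2(value + 1) was 1.02 ± 0.41 (SE of limma-trend; 95% interval 0.11 to 1.94), which is a 2.03-fold higher level. That fit had 4 residual and 5.71 prior degrees of freedom, so its SE and interval leaned in part on the spread of other rows. Without the trend in the variance estimate the SE was 0.51.

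MMP16 was represented by far fewer reads and had no common direction. Its normalised read counts in half-size libraries were 104 in pair A, 36.1 in pair B and 38.8 in pair C. In control libraries they were 64.5 in pair A, 24.1 in pair B and 54.9 in pair C. Half-size values were above the control of the same pair in A and B and below it in C, and the 2 groups overlapped. The half-size mean was 59.6 ± 38.5 and the control mean 47.8 ± 21.1 (SD, n = 3 each). The log2 difference was 0.25 ± 0.48 (SE; 95% interval -0.81 to 1.32). That interval leaves room for a fall as well as for a rise of more than the MMP14 difference. Gene lengths were not used, so the levels of MMP14 and MMP16 are not compared with each other here.

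**Figure D1:**
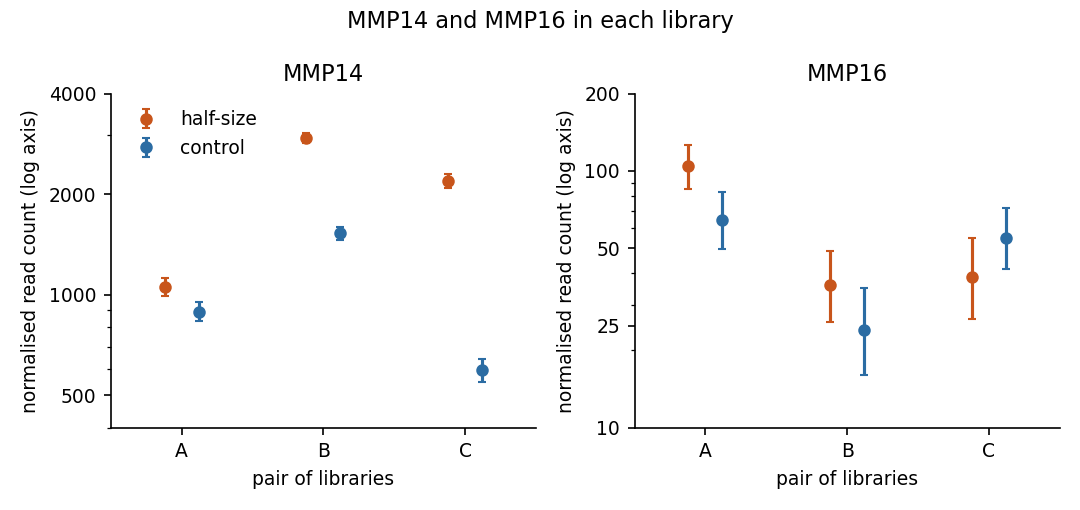
Normalised read counts (log axis) of MMP14, left, and MMP16, right, in the half-size and control library of each pair, with exact Poisson 95% intervals for counting error as bars. MMP14 is above its control in every pair, with the widest gap in pair C (2192 against 594), while MMP16 is above its control in pairs A and B and below it in pair C.

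Neither gene passed the test over all genes. In limma-trend, fitted to the 18016 rows whose mean value reached 1, the unadjusted p was 0.0313 for MMP14 and 0.610 for MMP16, and the Benjamini-Hochberg adjusted p was 1.00 for both. That test called 0 rows (0%) at an adjusted p under 0.05, so the table as a whole gave no call to measure the 2 genes against. It had 242 rows (1.34%) at an unadjusted p under 0.05, fewer than evenly spread p-values would give. The test does not use the pairs, and limma-trend with the pair as a block had 950 such rows (5.27%). edgeR and limma-voom on the recovered reads also called 0, with 129 and 118 rows at an unadjusted p under 0.05. Rows with an unadjusted p under 0.05 and a higher half-size level, as MMP14, made up 0.749% of all rows tested. Over the libraries alone, the two-sided exact permutation test gave p = 0.2 for MMP14 and p = 0.7 for MMP16. Adjusted by Benjamini-Hochberg over 3 such tests these became 0.6 and 0.8, and 3 libraries against 3 cannot go below 0.1.

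With the pair as a block, the SE of the MMP14 difference fell in limma-trend, and the gene still missed the threshold over all genes. The SE went from 0.41 to 0.23, the 95% interval became 0.51 to 1.54, and the adjusted p was 0.427 (limma-trend; unadjusted p = 0.00125). That fit had 2 residual and 8.51 prior degrees of freedom, so its SE leaned mostly on the spread of other rows. In DESeq2 the SE of MMP14 rose with the block, from 0.40 to 0.45. Blocked edgeR gave an adjusted p of 0.302 and blocked DESeq2 gave 1.00 for MMP14. Blocked limma-trend called 0.0167% of rows, namely LOC579269, hox1 and dri, and blocked edgeR called 0.0970%. DESeq2 without the block called 0.0167%, namely hox1, LOC593467, LOC593453 and LOC579269. For MMP16 the blocked interval was -0.31 to 0.81, with an adjusted p of 0.949 (limma-trend). A higher half-size value in every pair, as for MMP14, was found in 14.1% of the 11129 rows with a mean of at least 10.

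The authors' deposited table listed MMP14 at a log2 fold change of 1.04 (SE 0.40), with a p-value of 0.00996 and an adjusted p-value of 1.00. For MMP16 the authors' deposited table gave 0.32 (SE 0.53), with a p-value of 0.539.

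The size of the MMP14 difference differed between pairs by more than counting error. MMP14 was 1.19-fold higher in the half-size library of pair A, on 1067 against 871 reads, with a 95% counting interval of 1.08 to 1.30. It was 1.93-fold higher in pair B, on 3344 against 1773 reads (1.82 to 2.04), and 3.69-fold higher in pair C, on 1809 against 595 reads (3.36 to 4.05). These exact intervals do not overlap each other, and each compares single libraries and not the conditions. They cover counting error only, since the reads carry no molecular identifiers. On the log2(value + 1) scale the 3 differences were 0.25, 0.95 and 1.88.

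MMP16 ratios within a pair had wide counting intervals. The ratio in pair A was 1.61 (1.17 to 2.24) on 105 against 63 reads. In pair B it was 1.50 (0.903 to 2.51) on 41 against 28 reads, and in pair C it was 0.706 (0.442 to 1.11) on 32 against 55 reads. The intervals of pairs B and C include 1, so the ratios seen there were within counting error. The intervals of pairs A and C did not overlap.

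**Figure D2:**
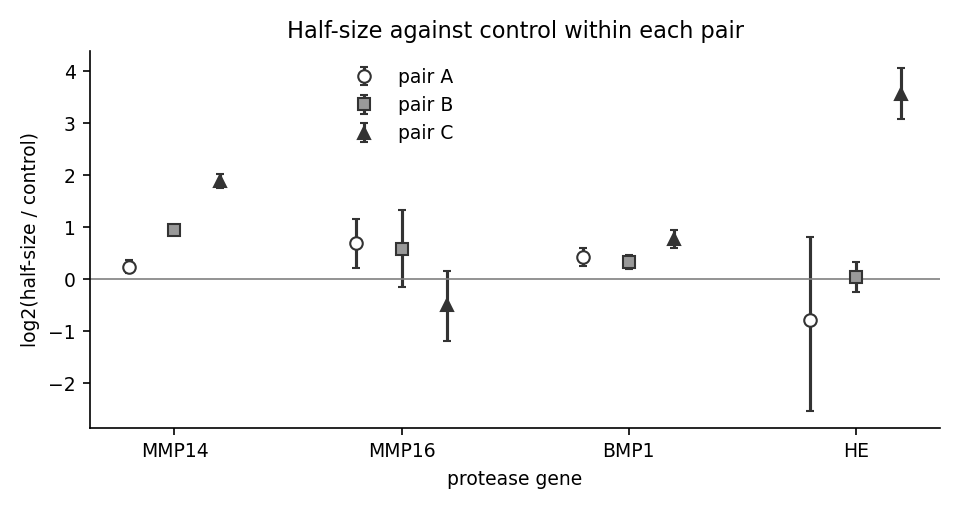
Log2 ratio of half-size over control within each pair for the 4 protease genes matched by name, with exact 95% counting intervals as bars. MMP14 (0.25, 0.95 and 1.88 in pairs A, B and C) and BMP1 lie above 0 in every pair, MMP16 lies below 0 in pair C, and HE lies far above 0 in pair C alone.

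Libraries of 1 group varied far more than read sampling allows. The SD of MMP14 within a group was 0.72 on the log2 scale, against 0.0424 from counting error, which made up 0.345% of the variance. For MMP16 the SD was 0.79 against 0.22 from counting error, or 7.47% of the variance. Among 768 rows with a mean of at least 500, a limit chosen after the values were seen, 95.2% had a smaller within-group SD than MMP14, and their median SD was 0.24. MMP14 was thus among the more variable of the well-covered genes. Among 4507 rows with a mean between 25 and 100, 91.0% had a smaller SD than MMP16.

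The MMP14 difference was nevertheless large for a gene with so many reads. Of the 768 rows with a mean of at least 500, 1 row, LOC592649, had a larger half-size minus control difference (1.05 ± 0.29, SE). The median of those rows was 0.04. Over all 18016 rows, 1.55% had a larger difference than MMP14. For MMP16, 21.5% of all rows had a larger difference.

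**Figure D3:**
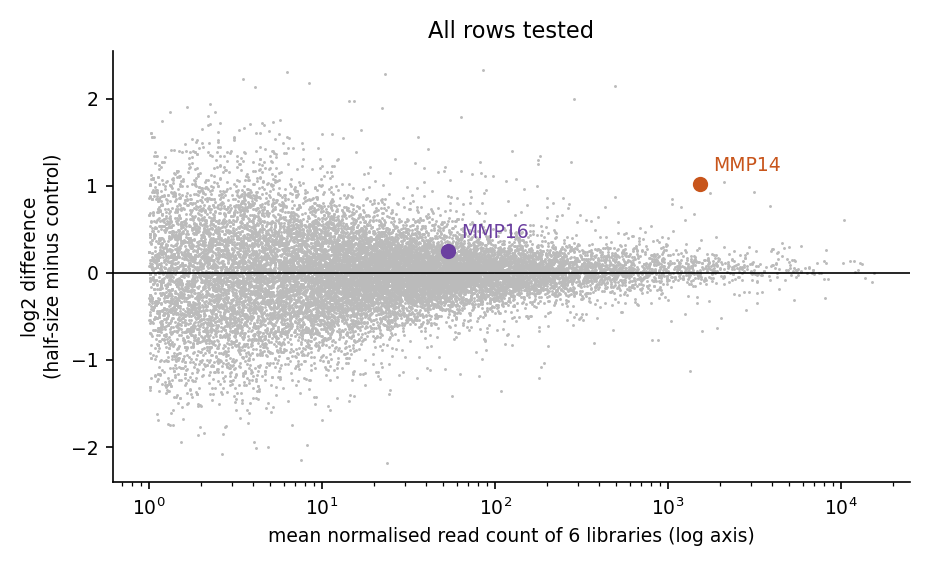
Log2 difference (half-size minus control) against the mean normalised read count (log axis) for the 18016 rows tested, 1 grey point per row, with MMP14 and MMP16 marked. MMP14, at 1.02, stands near the upper edge of the points at its read count, and MMP16, at 0.25, lies within the cloud.

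The order of the pairs was opposite for the 2 genes. Averaged over both libraries of a pair on the log2 scale, MMP14 was 9.92 in pair A, 10.16 in pair C and 11.05 in pair B. MMP16 was 6.37 in pair A, 5.56 in pair C and 4.93 in pair B. Pair A was therefore lowest for MMP14 and highest for MMP16, and pair B the reverse. The pair took 38.6% and the group 43.0% of the sum of squares of MMP14. For MMP16 the pair took 80.3% and the group 3.62%.

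The ratio of MMP14 to MMP16 within a library hardly depends on how the library was scaled (through the added 1 alone), and gene length drops out when it is compared between libraries. On the log2 scale it was 3.33, 6.31 and 5.78 in the half-size libraries of pairs A, B and C. In the control libraries it was 3.77, 5.93 and 3.41. Pair B was high and pair A low in both groups, and pair C was high in the half-size library and low in the control. The means were 5.14 ± 1.59 and 4.37 ± 1.36 (SD, n = 3 each), a difference of 0.77 (exact permutation test, two-sided p = 0.8, and 0.8 after adjustment over the 3 tests). By pair it was -0.44, 0.38 and 2.37, so that pair C carried most of it, and without pair C it was -0.03. A difference in response between MMP14 and MMP16 was thus not shown.

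Over the 6 libraries MMP16 correlated with all 6 skeletogenic markers, at r between 0.858 (SM30A) and 0.978 (P16). Markers of the other territories gave mixed values, from -0.76 to 0.81 for aboral ectoderm, -0.82 to 0.47 for oral and apical ectoderm, -0.76 to 0.66 for endoderm, and -0.10 to 0.59 for non-skeletogenic mesoderm. These values are a description, and no test was made of a difference between the territories. The rows most like each gene were ranked by Pearson's r of log2(value + 1) over the 6 libraries, among 11128 other rows with a mean of at least 10. The 6 points share 3 pairs, and with so few points high values arise readily: 123 rows exceeded 0.95 for MMP16 and 20 for MMP14. For MMP16 the closest rows were LOC754972, LOC100890816 and LOC585584 (r = 0.998, 0.997 and 0.996). The closest of the 192 rows with a gene name were pkd2, a polycystin-type calcium channel gene (r = 0.988), and P16 (r = 0.978). P16 encodes a transmembrane protein of skeletogenic cells that is needed for spicule growth.

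P16 had 1446, 535 and 669 normalised read counts in the half-size libraries of pairs A, B and C, and 1012, 452 and 732 in the control libraries. P16, Alx1 and msp130 were highest in half-size A and lowest in control B, as MMP16 was. SM50, SM37 and SM30A were also highest in half-size A, but lowest in half-size B (SM50) or half-size C. The 6 skeletogenic markers, which also include SM50, SM37, SM30A, msp130 and Alx1, summed to between 3816 and 10545 in half-size and between 3636 and 7427 in control libraries. Their sum differed by 0.51, 0.07 and -0.45 (log2, half-size over control) in pairs A, B and C, beside 0.68, 0.56 and -0.49 for MMP16. SM50 and SM30A had lower values in the half-size library of pair B, where MMP16 had a higher one. The same order of pairs was seen for the sum of the endoderm markers (0.10, -0.13 and -0.25). It was also seen for that of the non-skeletogenic mesoderm markers (-0.01, -0.28 and -0.57). Of these markers, GATAc had that order (0.36, 0.13 and -0.67) and gcm did not (-0.59, -0.72 and -0.28). The order differed for the aboral ectoderm sum (0.44, -0.14 and -0.06) and for the oral and apical ectoderm sum (-0.09, -0.19 and 0.14). The aboral sum was mostly SPEC1 (mean 2795 counts), which differed by 0.56, -0.02 and 0.08. Its other members were not alike. IrxA (-0.49, -0.89 and -1.07) and ARS (0.55, -0.94 and -1.44, on at most 5 reads) had the order of the skeletogenic sum. Dlx (-0.78, -1.12 and -1.06) and Tbx2/3 (-0.05, -0.31 and -0.18) did not. In whole embryos, fewer cells of a type and less RNA per cell cannot be told apart.

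Set against the skeletogenic sum, MMP16 ranged less than its counts did. The largest part of that sum was msp130 (mean 3108 counts), and the sums of the other territories were not used in this way. Per 1000 normalised counts of the markers it had 9.86, 9.46 and 10.1 counts in the half-size libraries of pairs A, B and C. In the control libraries it had 8.68, 6.63 and 10.5. The control of pair B, with only 28 reads, was the lowest. MMP14 on the same scale ran from 100 in half-size A and 114 in control C to 771 in half-size B. Relative to the markers, the difference between groups was 0.98 for MMP14 and 0.21 for MMP16 (two-sided exact permutation p = 0.4 each). MMP14 correlated with the marker sum at r = -0.59 over the libraries, and the sum was 0.51 higher (log2) in half-size A than in control A. MMP14 was lower in the half-size library of pair A on this scale (-0.26), so its common direction over the pairs was lost. This comparison was chosen after the values were seen.

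The rows most like MMP14 were LOC582957, LOC753002 and LOC100888576 (r = 0.987, 0.987 and 0.985 over 6 libraries). Among rows with a gene name they were SpZ12-1, a zinc finger transcription factor gene (r = 0.962), and BMP1 (r = 0.952). BMP1 encodes a tolloid-type metalloprotease, an enzyme class that cuts the BMP antagonist chordin. SpZ12-1 rested on few reads, with 10.99 to 24.6 normalised counts. MMP16 itself correlated with MMP14 at -0.55.

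**Figure D4:**
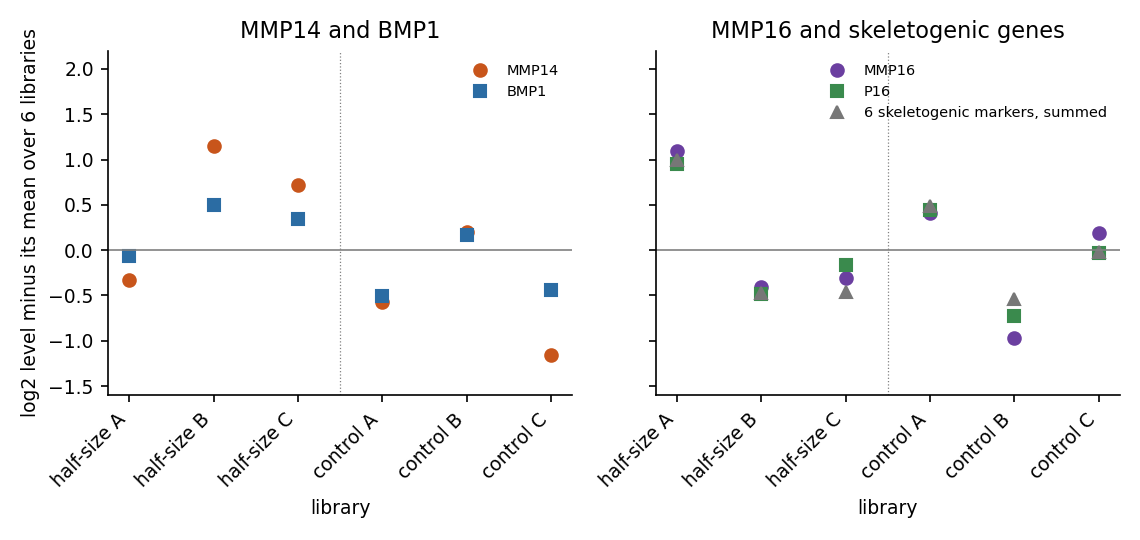
Log2 level of each gene in the 6 libraries, minus its mean over them. On the left BMP1 follows MMP14 over a narrower range, and on the right P16 and the sum of the 6 skeletogenic markers follow MMP16, all highest in half-size A, with MMP16 further below its mean than both in control B.

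Of the related genes planned for comparison, only those with a gene name in the table could be matched. No row was matched by name for the tissue inhibitors, the furin-like convertases or the ADAM proteases, and genes listed under LOC identifiers were not named here. The astacin and tolloid proteases had 2 measured members, BMP1 and HE. BMP1 had 634, 939 and 840 normalised read counts in the half-size libraries of pairs A, B and C, and 469, 745 and 490 in the control libraries. It was higher in the half-size library of each pair, as MMP14 was, by 0.44, 0.33 and 0.78 on the log2 scale. Its difference of 0.52 ± 0.23 (SE) had an adjusted p of 1.00 (limma-trend), or 0.521 with the block.

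HE, the hatching enzyme gene, encodes the protease with which the blastula digests its fertilisation envelope, and its transcripts belong to early blastula stages. It had 5.94, 177 and 471 normalised read counts in the half-size libraries of pairs A, B and C, and 10.2, 171 and 39.96 in the controls. Pair C, in which MMP14 differed most, was also the pair in which HE was 11.8-fold higher in the half-size library (95% counting interval 8.51 to 16.8). In pair B, where MMP14 was 1.93-fold higher, HE was at 1.03-fold (0.844 to 1.26). What these HE levels have to do with MMP14 was not tested.

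The genes listed here as matrix substrates of metalloproteases had no common direction. Of 6 measured members, 2 had higher and 4 lower values in half-size embryos, and the median difference was -0.00436, beside -0.000467 over all rows. The limma-trend test called 0 of them with or without the block. COLP1alpha and COLP2alpha, named as collagen genes, differed by 0.77 ± 0.65 and -0.43 ± 0.36 (SE). COLP1alpha had only 12 against 4, 2 against 2 and 4 against 2 reads (half-size against control) in pairs A, B and C. The counting interval of each of those ratios included 1. COLP3alpha differed by -0.09 ± 0.29, with 0.30, 0.08 and -0.65 in pairs A, B and C, the same order as the skeletogenic marker sum. ebr1, which encodes the egg bindin receptor, was also on this list and differed by 0.10 ± 0.23. Whether its product is a matrix substrate was not tested.

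Among cell surface partners, the syndecan gene Sdc alone was measured. It carries the heparan sulfate chains of a cell surface proteoglycan, and syndecans are shed by membrane-type metalloproteases in mammals. The half-size mean was 3751 ± 125 and the control mean 3993 ± 345 normalised counts (SD, n = 3 each). The log2 difference was -0.09 ± 0.15 (SE). Its libraries spread far less than those of MMP14.

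Regulators of skeletogenic cells and of their ingression numbered 5 measured members, 2 with higher and 3 with lower values and a median of -0.15. The limma-trend test called 0 of the 5. With the block it called 1, dri, an ARID-family factor, beside 0.0167% of all rows tested. The dri level fell by 1.21 on the log2 scale (adjusted p = 0.0469 in blocked limma-trend, and 0.114 without pair B). Alx1, the homeobox regulator of skeletogenic fate, differed by 0.11 ± 0.36, and erg, an ETS-family factor, by -0.15 ± 0.33 (SE). The gene snail, whose product represses cadherin as cells ingress, had 3.12 ± 3.52 against 3.47 ± 2.18 normalised counts (SD, n = 3 each), too few for a statement.

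**Figure D5:**
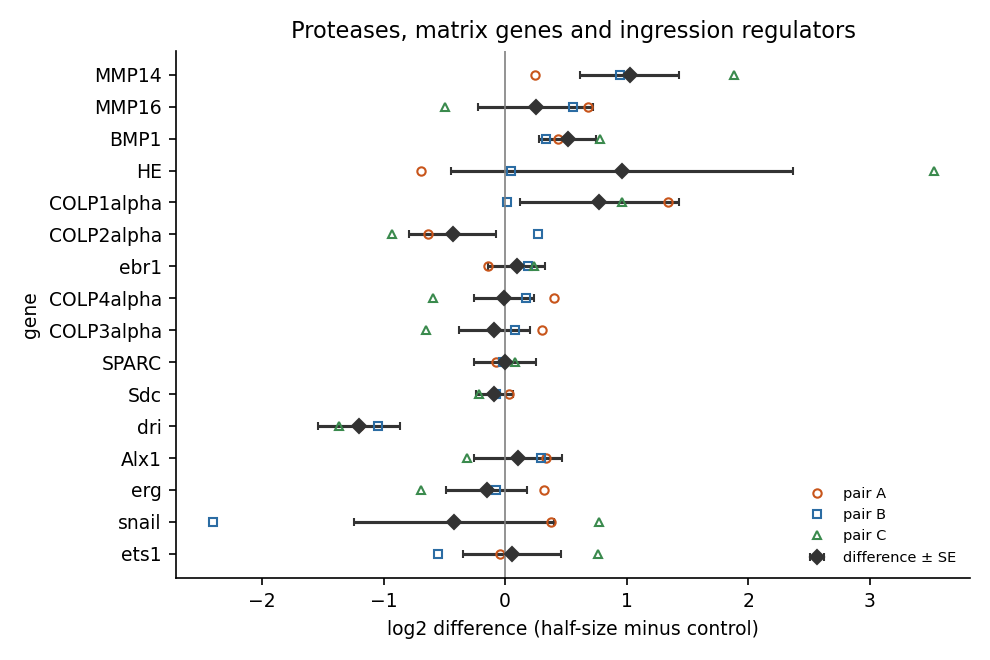
Log2 difference (half-size minus control) of 16 measured proteases, matrix and surface genes and ingression regulators. Filled diamonds give the difference over all libraries with its SE, and open symbols the difference within each pair. MMP14 and BMP1 lie above 0 and dri lies below 0 in every pair, while MMP16, COLP3alpha, Alx1 and erg lie below 0 in pair C. COLP1alpha also lies above 0 in every pair, but on at most 12 reads per library and within counting error.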

How the data were processed

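The deposited table holds, per gene of the Spur_4.2 annotation (per the file headers; Strongylocentrotus purpuratus, a related species), a signal for 6 libraries: gene read counts the authors divided by a size factor. The same table has the authors' mean signal, log2 fold changes with SE, test score, and p-values. Bowtie2 2.2.2, DESeq and edgeR are named in the submitters' processing notes, without roles. The counting program, strand setting and treatment of reads shared by related genes are therefore not known here (not given in the sources used here), and reads of paralogs may be mixed. 100% of values were whole multiples of their column's step (within 1e-06), which gave back the reads. limma-trend (limma 3.58.1 in R 4.3.3) was the main test, on log2(value + 1) for rows with a mean of 1 or more, Benjamini-Hochberg over all rows, threshold 0.05. edgeR 4.0.16, limma-voom and DESeq2 1.42.0 on recovered reads were alternatives. Pairs are the matching of columns with the highest mean correlation (0.64; next 0.21). The genes, lists and tests were chosen with earlier results of these data known. Named genes were MMP14, MMP16, up to 4 per list by smallest p, and the 3 closest rows and 2 closest named rows by correlation. The territory markers are named as lists, apart from the skeletogenic, aboral ectoderm and non-skeletogenic mesoderm markers, which are also named singly. The aboral and mesoderm markers were named singly after their values were seen. Every member of the related-gene lists is plotted. Others are named as chosen after their values were seen (LOC592649, and the called rows LOC579269, LOC593467, LOC593453 and hox1). Sequences and genome positions were not used here.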

Additional observations from a re-analysis of the deposited data

How the results depend on the processing

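The columns carry no replicate numbers, so the replicate block rests on pairs found from the values. MMP14 stayed positive in all 24 alternatives, from 0.60 (blocked, without pair C) to 1.45, and ran from 0.70 to 1.45 when 1 library was left out. It passed in 1 of them, the block without pair A (1.41, limma-trend adjusted p = 3.80e-09). That fit had 1 residual degree of freedom and an infinite prior, so the gene's own spread had no weight. Not all 24 alternatives could have changed the sign. Those that changed only the row filter or the variance estimate left the MMP14 difference at 1.02. The blocked fits without 1 pair had to be positive, since MMP14 was higher in every pair. MMP16 ran from -0.23 (leaving out the pair A half-size library) to 0.52 with single libraries left out, also negative (-0.17) without the control of pair B. The MMP14 minus MMP16 difference, 0.77, ran from 0.19 to 1.68 likewise, and was -0.026 in the replicate block without pair C. The count of 0 called rows became 4 in DESeq2 and, where the replicate block entered, 3 (limma-trend), 11 (edgeR) and 21 (DESeq2), and 80 and 31 in the blocked fit without pairs A and C. It was 0 in the blocked fit without pair B, where dri had an adjusted p of 0.114 (limma-trend), and 0 to 0 in the fits without a block that left out 1 library. List members called went from 0 to 1 (dri) in each of the 3 blocked fits (replicate block). Over all rows tested, those fits called 0.0167% (limma-trend), 0.0970% (edgeR) and 0.225% (DESeq2). The causes were not tested. MMP16 had 28 to 105 reads per library, and counting error was 7.47% of its variance within groups.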
